A study of Mus musculus with 10 samples.

Results

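The mRNA levels of 10 genes that encode chaperones of histone H3.3 were examined in mouse embryonic stem cells (mESCs): Daxx, Atrx, Hira, Ubn1, Ubn2, Cabin1, Asf1a, Asf1b, Dek and Nasp. They were chosen by symbol, and all 10 were found among the 20325 genes of the count table and among the 13201 genes that passed the filter on low values. RNA-Seq was performed on 5 mESC lines with 2 libraries each, all kept without feeder cells in serum-free medium with LIF and inhibitors of GSK3 and MEK. Daxx-/- mESCs (strain 129/SvEv) lack DAXX, and Daxx-/- + WT mESCs are the same line with a lentiviral transgene for FLAG-tagged wild-type murine DAXX. H3.3 KO mESCs (129 x C57BL/6J) lack H3.3, H3.3 KO + WT mESCs carry a FLAG-HA-tagged wild-type H3.3 transgene, and H3.3 KO + L126A-I130A mESCs carry H3.3 with the substitutions L126A and I130A, which the sample labels spell L126A-L130A. The transgenes were driven by the EF1 promoter and the transduced cells were selected with puromycin. Each knockout is 1 line, no unmodified wild-type mESCs were analysed here, and the strain differs between the Daxx and the H3.3 lines in the same way as the knockout, so those cannot be told apart.

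H3.3 is the histone H3 variant that is placed into chromatin outside of DNA replication. DAXX holds the H3.3-H4 dimer and works with the chromatin remodeler ATRX at telomeres and pericentric repeats. The HIRA complex, made of HIRA, a ubinuclein (UBN1 or UBN2) and CABIN1, places H3.3 at genes and regulatory elements, and receives it from ASF1A. NASP guards soluble H3-H4, ASF1A and ASF1B hand H3-H4 to downstream chaperones, and DEK is a chromatin protein with H3.3 chaperone activity.

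The RefSeq promoter windows (GRCm38.p6, 250 bases before to 50 after a transcript start) matched all 10 genes with 12 windows. The 4 windows below belong to Daxx, whose level differed most between lines, to Ubn2 and Cabin1, which differed between the Daxx and the H3.3 lines, and to Ubn1, the paralog of Ubn2. Each is written 5′ to 3′ on the gene's own strand. Capitals mark matches on either strand to 7 motifs: the CCAAT box (CCAAT), the GC box (GGGCGG), the ETS site (CCGGAAG), the CRE (TGACGTCA), the NRF1 site (GCATGCGC), the YY1 site (AAGATGGCG) and the E2F site (TTTCGCGC, TTTGGCGC or TTTCCCGC). Adjoining or overlapping matches run together.
Daxx (chr17:33909195-33909494, plus strand): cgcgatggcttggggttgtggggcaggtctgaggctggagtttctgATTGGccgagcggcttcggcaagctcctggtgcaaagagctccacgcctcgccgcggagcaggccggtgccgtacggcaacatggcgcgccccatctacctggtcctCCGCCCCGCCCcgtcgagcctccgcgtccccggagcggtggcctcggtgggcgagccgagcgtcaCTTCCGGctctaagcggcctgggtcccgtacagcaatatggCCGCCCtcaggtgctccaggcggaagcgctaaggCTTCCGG
Ubn1 (chr16:5049807-5050106, plus strand): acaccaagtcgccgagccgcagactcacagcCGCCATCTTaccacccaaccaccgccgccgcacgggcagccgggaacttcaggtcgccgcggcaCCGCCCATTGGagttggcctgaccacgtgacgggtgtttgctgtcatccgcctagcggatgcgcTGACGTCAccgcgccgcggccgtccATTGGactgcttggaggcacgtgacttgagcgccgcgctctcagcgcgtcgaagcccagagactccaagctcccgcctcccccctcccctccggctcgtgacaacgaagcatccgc
Ubn2 (chr6:38433675-38433974, plus strand): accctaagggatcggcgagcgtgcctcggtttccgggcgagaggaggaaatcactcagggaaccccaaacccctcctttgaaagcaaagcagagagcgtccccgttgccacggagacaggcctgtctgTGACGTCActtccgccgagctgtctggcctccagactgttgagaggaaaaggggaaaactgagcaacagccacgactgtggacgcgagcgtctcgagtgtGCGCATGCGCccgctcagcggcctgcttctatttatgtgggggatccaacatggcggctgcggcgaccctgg
Cabin1 (chr10:75764308-75764607, minus strand): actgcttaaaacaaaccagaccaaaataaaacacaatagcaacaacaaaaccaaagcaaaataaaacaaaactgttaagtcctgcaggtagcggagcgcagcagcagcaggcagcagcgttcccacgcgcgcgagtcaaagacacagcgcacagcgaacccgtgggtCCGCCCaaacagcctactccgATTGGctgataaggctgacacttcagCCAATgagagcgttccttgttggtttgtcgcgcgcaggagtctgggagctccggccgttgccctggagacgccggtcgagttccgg

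Daxx has 3 of the 12 windows, and the first is shown. These 3 windows overlap, so the same match can be counted in more than 1 of them. A CCAAT box was found in 8 of the 12 windows and in 37.4% of the 32851 promoter windows of the table. These 8 windows belong to 8 genes, all but Hira and Ubn2, and of the Daxx windows only the first holds the motif. A GC box was found in 9 of the 12 windows (7 genes) and in 35.7% of all windows. The 12 windows held from 48.3% (Nasp) to 75.7% (Dek) G and C, and the median of all windows was 52.7%. The part of base content in these matches was not tested. The CRE, held by 1.79% of all windows, was found in both ubinuclein genes and in no other member. The Ubn2 window also held 2 overlapping NRF1 matches (2.71% of all windows), and the Ubn1 window a YY1 match (1.40%). ETS matches were found in 4 of the 12 windows, those of 2 genes, Daxx and Hira (8.86% of all windows), and E2F matches (1.84%) for none of the 10 genes. These are matches of letters, and binding was not measured.

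The libraries held 15463625 to 21396585 expected counts, and the 10 genes were read with between 457 and 17269 counts per library. Levels are given as normalised CPM, counts scaled to library size and corrected by size factors, and a change was called at an adjusted p under 0.05 (edgeR quasi-likelihood test, Benjamini-Hochberg over the 13201 genes) and at least 2-fold. H3f3a, 1 of the 2 genes for H3.3, was at 381 to 494 CPM in the Daxx lines and at 2.84 to 10.9 CPM in the H3.3 lines. H3f3b, the other, was at 509 to 720 CPM in the libraries labelled H3.3 KO, 139 to 204 in H3.3 KO + WT, 324 to 386 in H3.3 KO + L126A-I130A, 313 to 380 in Daxx-/- and 84.3 to 116 in Daxx-/- + WT. It was thus highest in the line labelled as its knockout, so its gene count gives no check of that label. In the paper's immunoblot, H3.3 protein was absent from H3.3 KO mESCs. Which part of H3f3b was deleted is not given in the sources used here, and why its count stayed high was not tested. The 8 embryonic stem cell markers summed to 4469 to 6701 CPM, and the 4 fibroblast markers to 4.25 to 40.9 CPM, the highest in Daxx-/- mESCs (27.4 to 40.9). Of the fibroblast markers Thy1 ranged from 3.23 to 36.0 CPM, whereas Col1a1 reached at most 4.44, Col1a2 0.333 and Postn 0.111 CPM. The Daxx-/- replicates differed most (root mean square log2 difference over all genes 0.631, against 0.301 to 0.485 in the other lines).

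Per length, Nasp and Dek were the most abundant of the 10 mRNAs and Ubn2 the least. With each gene's CPM divided by the length of all its exons, the median over the 10 libraries was 104 CPM per kb for Nasp (57.6 to 155) and 88.9 for Dek (57.8 to 143). These ranges overlapped. Daxx followed at 22.3 CPM per kb (18.8 to 65.4), then Hira at 21.5, Asf1b at 18.1, Atrx at 14.7 and Asf1a at 11.0, with overlapping ranges between neighbours. The HIRA partners came last: Ubn1 at 7.65, Cabin1 at 7.22 and Ubn2 at 2.32 CPM per kb (1.88 to 4.85). Nasp, Dek and Ubn2 kept their places when each gene was divided by its longest transcript, whereas Daxx moved behind Hira and Atrx, and Cabin1 ahead of Ubn1.

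**Figure D1:**
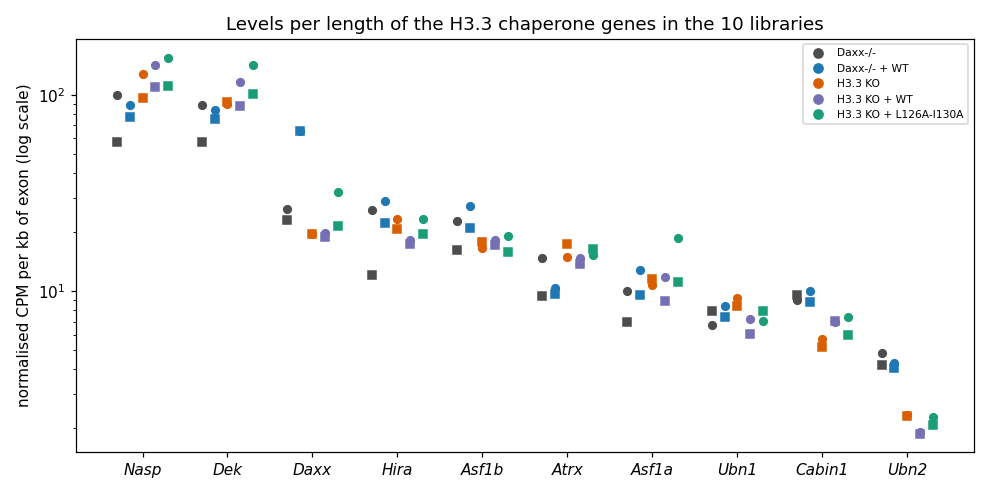
Normalised CPM per kb of exon (log axis) for each gene, ordered by the median over the 10 libraries. Circles are replicate 1 and squares replicate 2, coloured by line. Daxx-/- + WT stands alone at 65.3 to 65.4 CPM per kb for Daxx, and the 4 Daxx-line libraries stand above the 6 H3.3-line libraries for Ubn2.

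The first question was whether Daxx mRNA followed the transgenes. Daxx (chr17:33909414-33915590, plus strand, GRCm38) was at 82.5 and 72.8 CPM in the 2 Daxx-/- libraries and at 206 and 206 CPM in the 2 Daxx-/- + WT libraries. The groups did not overlap, and Daxx rose 2.65-fold with the DAXX transgene (log2 fold change 1.41 ± 0.18 SE, 95% interval 0.99 to 1.82, adjusted p = 0.0212). Daxx was the only 1 of the 10 genes called in this comparison, where 1.08% of all genes were called (0.288% as higher), and the only 1 whose libraries did not overlap, against 46.5% of all genes. The count per gene does not separate the knockout allele from the transgene, and the reads in the libraries labelled Daxx-/- give no check of that label.

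The size of this change was stable, at 1.31 to 1.50 on the log2 scale with any 1 library left out, but its adjusted p was not. That adjusted p passed 0.05 in 8 of the 9 alternatives other than leaving out 1 library. It was 0.0549 without Daxx-/- replicate 2, 0.189 and 0.0789 without Daxx-/- + WT replicate 1 or 2, 0.0585 and 0.0570 without H3.3 KO + WT replicate 1 or 2, and 0.125 with the 4 Daxx libraries fitted alone.

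In the H3.3 lines, Daxx was at 61.9 and 61.4 CPM in H3.3 KO, at 62.3 and 59.3 CPM in H3.3 KO + WT and at 101 and 67.4 CPM in H3.3 KO + L126A-I130A. The KO and the WT libraries overlapped, both mutant libraries were above them, and mutant replicate 1 stood apart from replicate 2. The log2 fold change of Daxx after WT H3.3 was introduced was -0.02 ± 0.18 (SE), with a 95% interval of -0.43 to 0.39 (adjusted p = 0.977). With L126A-I130A H3.3 it was 0.45 ± 0.18 against H3.3 KO (adjusted p = 0.258) and 0.47 ± 0.18 against WT H3.3 (adjusted p = 0.340), short of the threshold. Leaving out mutant replicate 1 brought these to 0.13 and 0.15. Both H3.3 transgenes were compared with the same H3.3 KO libraries.

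The change of Daxx with the DAXX transgene exceeded that with WT H3.3 by 1.43 ± 0.26 on the log2 scale (95% interval 0.84 to 2.01) and that with L126A-I130A H3.3 by 0.96 ± 0.26 (0.38 to 1.54). Neither difference passed the adjusted threshold over all genes (adjusted p = 0.121 and 0.278, edgeR), where 0.0455% and 0.0227% of all genes did. The first passed with DESeq2 (adjusted p = 3.3e-04).

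**Figure D2:**
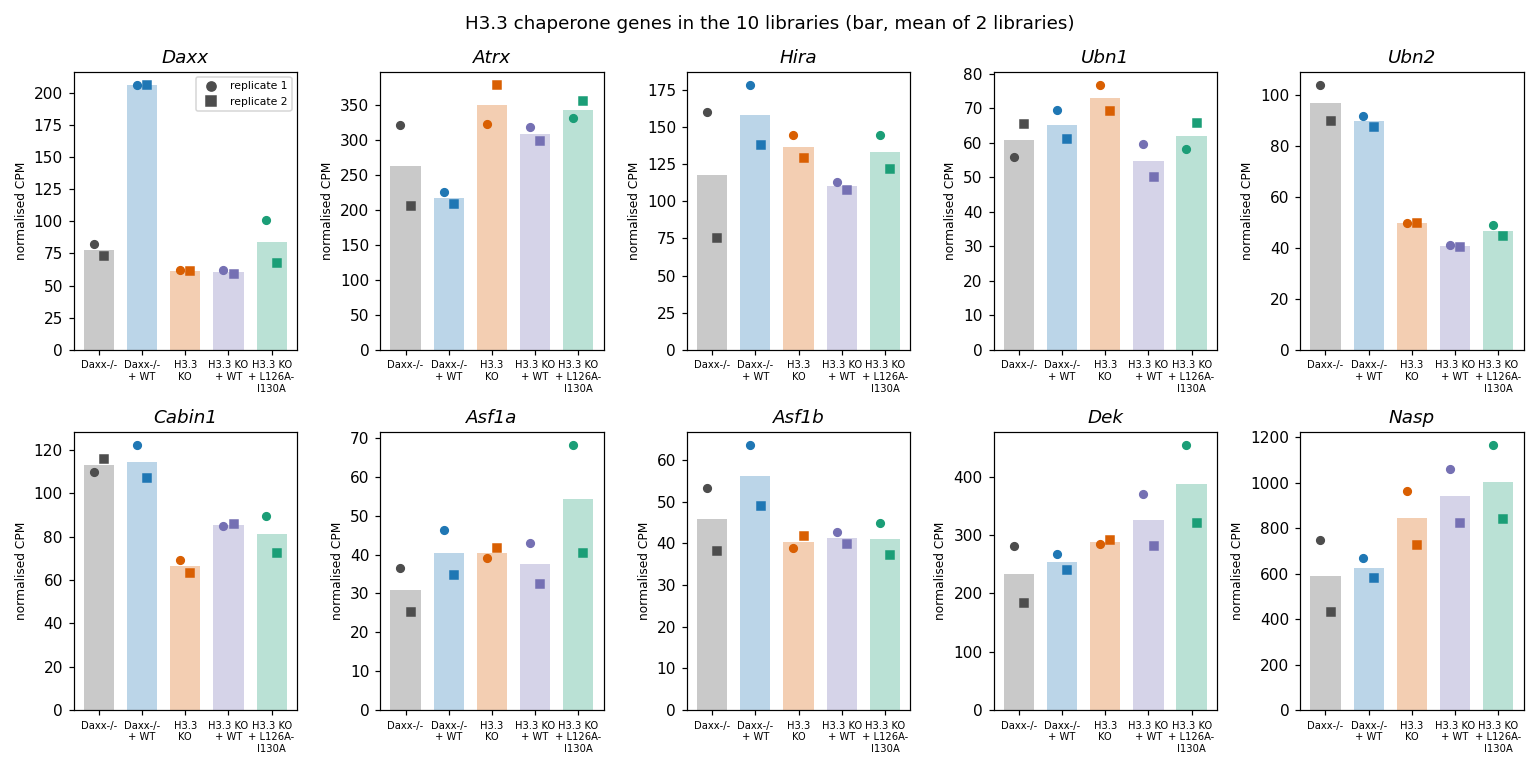
Normalised CPM of the 10 genes in each library, with 1 panel per gene and axes from 0. Bars are means of 2 libraries, circles replicate 1 and squares replicate 2. Daxx is near 206 CPM in Daxx-/- + WT and between 59.3 and 101 CPM elsewhere, and Ubn2 and Cabin1 are higher in all 4 Daxx-line libraries than in all 6 H3.3-line libraries.

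Atrx (chrX:105797615-105929403, minus strand), the remodeler that DAXX binds, showed no called change in any comparison. It was at 322 and 205 CPM in Daxx-/-, 225 and 209 in Daxx-/- + WT, 323 and 379 in H3.3 KO, 319 and 299 in H3.3 KO + WT, and 332 and 356 in H3.3 KO + L126A-I130A. The Daxx-/- libraries enclosed the Daxx-/- + WT libraries, and Daxx-/- replicate 1 reached the level of the H3.3 lines. The log2 fold changes were -0.28 ± 0.20 (SE) with the DAXX transgene (adjusted p = 0.435), -0.18 ± 0.20 for H3.3 KO + WT against H3.3 KO (0.749) and -0.03 ± 0.20 for H3.3 KO + L126A-I130A (0.959). H3.3 KO + WT exceeded Daxx-/- + WT by 0.51 ± 0.20 (adjusted p = 0.108), and by 0.46 to 0.56 with 1 library left out. That difference passed an adjusted p of 0.05 in 1 of the 9 alternatives other than leaving out 1 library. Between the knockouts the difference was 0.41 ± 0.20 (adjusted p = 0.163). It ranged from 0.12 to 0.77 with 1 library left out, the highest without Daxx-/- replicate 1, and passed in 0 of the 9 other alternatives.

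The ratio of Atrx to Daxx CPM, which is not corrected for length, was 1.02 to 1.09 in Daxx-/- + WT and 2.82 to 6.17 in the other 8 libraries, and the 2 groups did not overlap. This split restates the high Daxx count of Daxx-/- + WT and is not a separate result about Atrx.

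Hira (chr16:18877037-18970309, plus strand), the subunit that gives the HIRA complex its name, had the widest single difference between replicates, in Daxx-/-. It was at 160 and 75.0 CPM in Daxx-/-, a 2.14-fold difference between libraries of 1 line. The other lines were closer, at 178 and 138 CPM in Daxx-/- + WT, 144 and 129 in H3.3 KO, 113 and 108 in H3.3 KO + WT, and 144 and 122 in H3.3 KO + L126A-I130A. With the DAXX transgene the log2 fold change of Hira was 0.43 ± 0.30 (SE), with adjusted p = 0.427. It turned on 1 library: 1.08 (adjusted p = 0.0221, called) without Daxx-/- replicate 1 and -0.03 (adjusted p = 0.966) without Daxx-/- replicate 2. With WT H3.3 it was -0.31 ± 0.30 (adjusted p = 0.711), where the libraries did not overlap, and with L126A-I130A H3.3 -0.04 ± 0.30 (adjusted p = 0.964), where they did. For H3.3 KO + WT against Daxx-/- + WT it was -0.52 ± 0.30 (adjusted p = 0.248), where the libraries did not overlap. That difference passed an adjusted p of 0.05 in 1 of the 9 alternatives other than leaving out 1 library. In the annotation 44.7% of the exon bases of Hira are shared with the readthrough gene Gm28539, which the count table does not list.

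Ubn2 (chr6:38433950-38524825, plus strand), a ubinuclein, was lower in the H3.3 lines than in the Daxx lines. It was at 104 and 89.6 CPM in Daxx-/- and at 91.9 and 87.4 CPM in Daxx-/- + WT. In the H3.3 lines it was at 49.7 and 49.8 CPM in H3.3 KO, 41.2 and 40.3 in H3.3 KO + WT, and 48.9 and 44.7 in H3.3 KO + L126A-I130A. The lowest Daxx-line library was well above the highest H3.3-line library. Of all genes, 22.8% had no overlap between the Daxx-line and the H3.3-line libraries.

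H3.3 KO + WT against Daxx-/- + WT gave a log2 fold change of Ubn2 of -1.14 ± 0.13 (SE, adjusted p = 0.0019), which was called under every alternative run. H3.3 KO against Daxx-/- gave -0.96 ± 0.13 (adjusted p = 0.0023), just under the 2-fold limit. None of the transgenes moved Ubn2 past the threshold: its log2 fold change was -0.11 ± 0.13 in Daxx-/- + WT, -0.29 ± 0.13 in H3.3 KO + WT (adjusted p = 0.389) and -0.09 ± 0.13 in H3.3 KO + L126A-I130A. A stretch of 472 bases of the longest Ubn2 transcript is identical in a transcript of Hipk2, which is also in the table, and reads from it could be assigned to either.

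Cabin1 (chr10:75646112-75764341, minus strand), the calcineurin-binding subunit of the HIRA complex, followed the same division at a smaller size. It was at 110 and 116 CPM in Daxx-/- and at 122 and 107 CPM in Daxx-/- + WT. It was at 69.3 and 63.4 CPM in H3.3 KO, 84.7 and 85.7 in H3.3 KO + WT, and 89.7 and 72.6 in H3.3 KO + L126A-I130A. All 6 H3.3-line libraries were below all 4 Daxx-line libraries, and within the H3.3 lines both transgenes were above H3.3 KO.

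H3.3 KO against Daxx-/- gave a log2 fold change of Cabin1 of -0.77 ± 0.15 (SE, adjusted p = 0.0077, or 0.0695 without H3.3 KO replicate 2). H3.3 KO + WT against Daxx-/- + WT gave -0.43 ± 0.14 (adjusted p = 0.0713). It passed an adjusted p of 0.05 in 3 of the 9 alternatives other than leaving out 1 library. Against H3.3 KO, Cabin1 differed by 0.36 ± 0.15 with WT H3.3 (adjusted p = 0.329) and by 0.29 ± 0.15 with L126A-I130A H3.3 (adjusted p = 0.355), and neither passed the threshold.

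Ubn1 (chr16:5050057-5086289, plus strand), the other ubinuclein, did not divide the lines. It was at 55.7 and 65.5 CPM in Daxx-/-, 69.3 and 61.0 in Daxx-/- + WT, 76.7 and 69.2 in H3.3 KO, 59.5 and 50.1 in H3.3 KO + WT, and 58.2 and 65.7 in H3.3 KO + L126A-I130A. The ranges of the Daxx and the H3.3 lines overlapped, and both H3.3 KO libraries were above those of either H3.3 transgene. The log2 fold change with WT H3.3 was -0.41 ± 0.16 (SE, adjusted p = 0.303) and with L126A-I130A H3.3 -0.24 ± 0.16 (adjusted p = 0.496).

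The balance of the ubinucleins therefore differed between the line families. The ratio of Ubn1 to Ubn2 CPM was 0.536 to 0.754 in the 4 Daxx-line libraries and 1.19 to 1.54 in the 6 H3.3-line libraries, with no overlap. This split restates the lower Ubn2 count of the H3.3 lines and is not a separate result about Ubn1. How often the ratios of other gene pairs split in this way was not tested. The ratio of Hira to Cabin1 was 0.646 to 1.46 and 1.25 to 2.08, with overlap. These ratios are not corrected for length, and are read between libraries only.

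**Figure D3:**
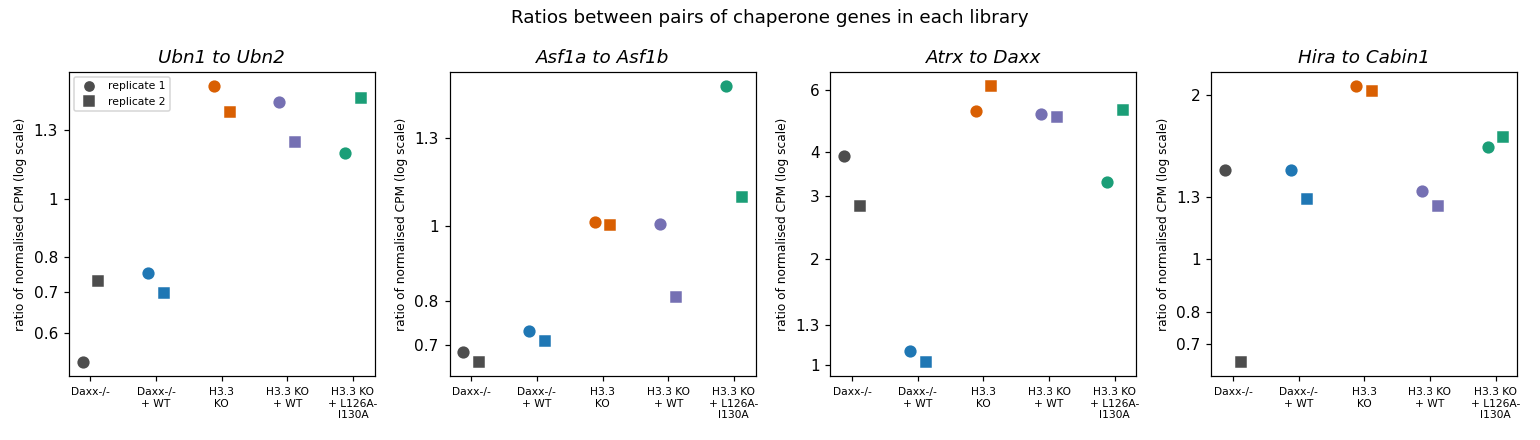
Ratio of the CPM of a pair of genes in each library (log axes), with circles for replicate 1 and squares for replicate 2. Ubn1 to Ubn2 lies at 0.536 to 0.754 in the Daxx lines and 1.19 to 1.54 in the H3.3 lines, Asf1a to Asf1b at 0.665 to 0.731 and 0.810 to 1.52, and Atrx to Daxx is lowest in Daxx-/- + WT.

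Asf1a (chr10:53596757-53609225, plus strand) and Asf1b (chr8:83955507-83970197, plus strand) encode the paralogs that pass H3-H4 to other chaperones, ASF1B being the one linked to dividing cells. Asf1a was at 36.6 and 25.3 CPM in Daxx-/-, 46.4 and 34.7 in Daxx-/- + WT, 39.2 and 41.7 in H3.3 KO, 43.0 and 32.3 in H3.3 KO + WT, and 68.1 and 40.5 in H3.3 KO + L126A-I130A. Mutant replicate 1 was the highest library and its replicate 2 lay within the range of the other lines. The largest log2 fold change of Asf1a was 0.53 ± 0.29 (SE), L126A-I130A against WT H3.3 (adjusted p = 0.521), and it was 0.10 without mutant replicate 1. With the DAXX transgene it was 0.39 ± 0.29 (adjusted p = 0.451).

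Asf1b was at 53.3 and 38.1 CPM in Daxx-/-, 63.5 and 48.9 in Daxx-/- + WT, 38.8 and 41.6 in H3.3 KO, 42.8 and 39.9 in H3.3 KO + WT, and 44.8 and 37.1 in H3.3 KO + L126A-I130A. Its level in Daxx-/- + WT was above all 6 H3.3-line libraries, and the log2 fold change of H3.3 KO + WT against Daxx-/- + WT was -0.44 ± 0.20 (SE, adjusted p = 0.157). The other changes of Asf1b were 0.30 ± 0.20 with DAXX (adjusted p = 0.412) and 0.04 ± 0.20 with WT H3.3 (adjusted p = 0.960). The ratio of Asf1a to Asf1b CPM was 0.665 to 0.731 in the Daxx lines and 0.810 to 1.52 in the H3.3 lines. The exons of Asf1a share 48.0% of their length with Mcm9 on the opposite strand, and the library kit does not mark strand, so the reads of that stretch cannot be told apart.

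Dek (chr13:47084775-47106201, minus strand) was at 282 and 184 CPM in Daxx-/-, 267 and 240 in Daxx-/- + WT, 285 and 292 in H3.3 KO, 371 and 281 in H3.3 KO + WT, and 454 and 321 in H3.3 KO + L126A-I130A. All Daxx-line libraries but Daxx-/- replicate 1 were below all H3.3-line libraries, and the mutant libraries were both above those of H3.3 KO. The log2 fold change of Dek with L126A-I130A H3.3 was 0.43 ± 0.24 (SE, adjusted p = 0.407), and that with DAXX 0.12 ± 0.24 (adjusted p = 0.787). Kdm1b, on the opposite strand, shares 15.9% of the exon length of Dek.

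Nasp (chr4:116601052-116627941, minus strand) was at 747 and 433 CPM in Daxx-/-, 670 and 582 in Daxx-/- + WT, 962 and 726 in H3.3 KO, 1061 and 821 in H3.3 KO + WT, and 1164 and 838 in H3.3 KO + L126A-I130A. Replicate 1 was higher in each of the 5 lines. The log2 fold change of Nasp was 0.09 ± 0.28 (SE) with DAXX (adjusted p = 0.872), 0.25 ± 0.28 with L126A-I130A H3.3 (0.701), 0.52 ± 0.28 for H3.3 KO against Daxx-/- (0.203) and 0.59 ± 0.28 for H3.3 KO + WT against Daxx-/- + WT (0.166). With 1 library left out it ranged from 0.18 to 0.96 between the knockouts, the highest without Daxx-/- replicate 1, and from 0.39 to 0.76 between the WT lines. Between the WT lines the adjusted p was 0.0197 with those 4 libraries fitted alone. Of the 9 alternatives other than leaving out 1 library, 1 passed an adjusted p of 0.05 between the knockouts and 2 between the WT lines.

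Over the set, the WT H3.3 transgene called 0 of the 10 genes, where 0.25% of all genes were called, and the L126A-I130A transgene 0 of the 10, where 0.788% were. The 2 H3.3 transgenes against each other gave 0 of 10, where 0.515% of all genes were called. At an unadjusted p under 0.05 these comparisons held 2, 1 and 1 of the 10 genes, and 13.3%, 16.9% and 12.3% of all genes. Libraries did not overlap for 5 of the 10 genes with WT H3.3 (56% of all genes), 5 with L126A-I130A H3.3 (50.1%) and 4 between them (45.3%). Apart from Daxx, the log2 fold changes of the members lay between -0.41 and 0.53 in these comparisons and that of the DAXX transgene, and their 95% intervals reached 1.17. For some members a 2-fold change thus lay within the interval that 2 libraries a line allow.

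**Figure D4:**
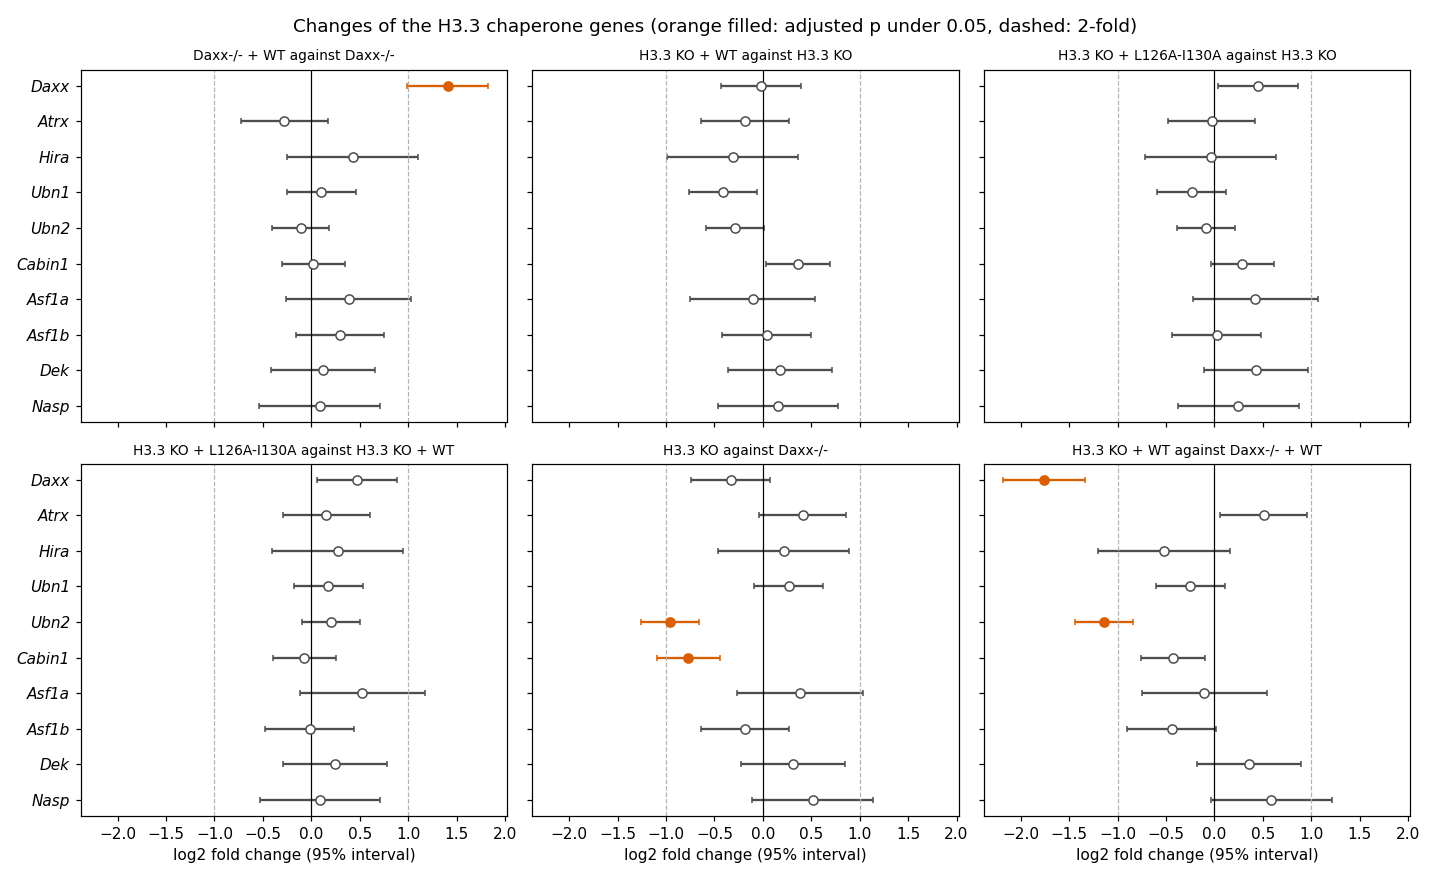
Log2 fold change of the 10 genes in the 6 comparisons of lines, with 95% intervals from the edgeR fit. Filled orange points passed an adjusted p of 0.05 and dashed lines mark a 2-fold change. Only Daxx passed with the DAXX transgene (1.41), none of the 10 passed with either H3.3 transgene, and Ubn2 with Cabin1 or with Daxx passed between the line families.

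Between the line families, H3.3 KO against Daxx-/- called 0 of the 10 genes, where 11.7% of all genes were called, and by adjusted p alone 2, Ubn2 and Cabin1, where 23.7% did. H3.3 KO + WT against Daxx-/- + WT called Daxx (log2 fold change -1.76 ± 0.19 SE, adjusted p = 0.0012) and Ubn2, both lower, where 8.45% of all genes were called (3.33% as lower). By adjusted p alone these were again 2 of the 10, against 17.7% of all genes. The call of Daxx restates the high Daxx count of Daxx-/- + WT, which carries the DAXX transgene. Between the knockouts Daxx differed by -0.33 ± 0.18 (SE, adjusted p = 0.212, edgeR). Libraries did not overlap for 7 of the 10 genes in the first comparison (60.2% of all genes) and for 9 in the second (70%). Ubn2 and Cabin1 were the members with no overlap between the 4 and the 6 libraries, 2 of 10 against 22.8% of all genes. The 8 stem cell markers summed to 4469 to 5540 CPM in the Daxx lines and 5091 to 6701 CPM in the H3.3 lines, the 4 fibroblast markers to 12.3 to 40.9 and 4.25 to 11.1 CPM, the 3 mesoderm markers to 12.3 to 24.2 and 7.89 to 19.5 CPM, the 3 neuroectoderm markers to 39.5 to 44.8 and 47.2 to 82.9 CPM, and the 4 primitive endoderm markers to 3.07 to 12.8 and 5.95 to 10.8 CPM. Of these markers, H3.3 KO against Daxx-/- called Tbx3 (log2 fold change 1.15) and Thy1 (-2.11). H3.3 KO + WT against Daxx-/- + WT called Klf4 (1.31), Col1a1 (2.42) and Eomes (-1.60). Thy1 and Col1a1, both fibroblast markers, were thus called in opposite directions, each in a different comparison. The part of such differences in the chaperone levels was not tested, and in bulk RNA fewer cells of a type and less RNA per cell cannot be told apart.

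Replicate 1 tended to hold more chaperone mRNA than replicate 2. It was higher for 8 of the 10 genes in Daxx-/-, 10 in Daxx-/- + WT, 6 in H3.3 KO, 9 in H3.3 KO + WT and 8 in H3.3 KO + L126A-I130A, where 48.7% to 50.8% of all tested genes were. The widest member was Hira in Daxx-/-, Nasp in H3.3 KO and Asf1a in the other 3 lines. The summed level of 15 S-phase genes was also higher in replicate 1 of each line, for example 5677 against 4514 CPM in Daxx-/- and 5177 against 4392 CPM in H3.3 KO + L126A-I130A. Its part in the chaperone levels was not tested.

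**Figure D5:**
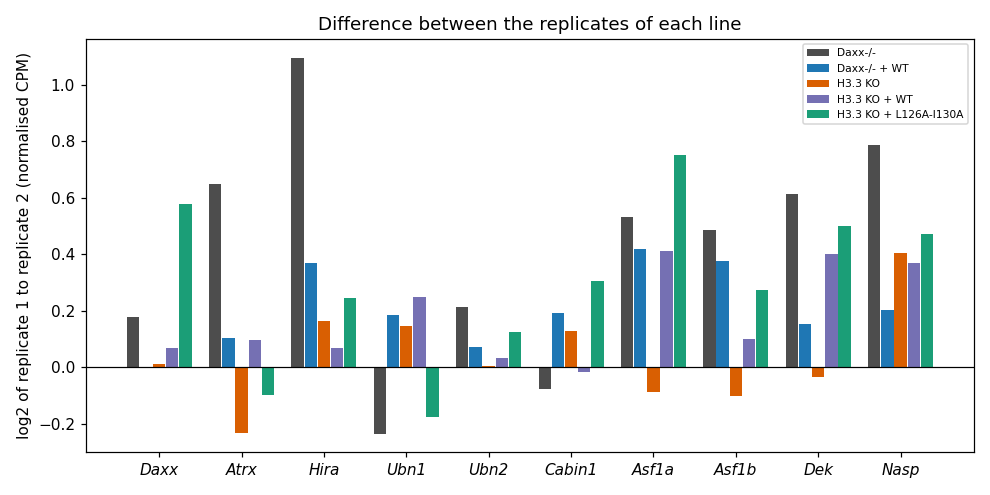
Log2 of the ratio of replicate 1 to replicate 2 (normalised CPM) for each gene, with 1 bar per line. Most bars are above 0. Hira in Daxx-/- is the tallest, a 2.14-fold difference.

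Across the 10 libraries, which share lines and controls, Dek and Nasp moved together most (Pearson r = 0.936 of log2 levels, and 0.902 after each line's mean was removed), followed by Asf1a and Dek (0.879 and 0.946). Ubn2 and Cabin1 were correlated across libraries (0.808) but less so within lines (0.352). Atrx and Cabin1 were the most opposed pair (-0.808, and -0.329 within lines). Ubn2 and Nasp were opposed across libraries (-0.704) and parallel within lines (0.901). These are descriptions over 10 points in 5 lines, and a within-line value rests on 1 difference between replicates per line. Other pairs were as parallel within lines, for example Hira and Ubn2 (0.947), whereas Hira and Ubn1 were opposed (-0.352). By Pearson r of log2 levels across the 10 libraries, the genes most like Daxx were Clk2 (r = 0.991), Agpat2 (0.973) and Acaa1a (0.970). Those most like Atrx were Slc25a13 (0.951), Depdc1b (0.950) and Zcchc3 (0.949), and those most like Hira were Rnf139 (0.979), Rab11b (0.958) and Gpr160 (0.953). Each was picked for its r among all tested genes, so a high r follows from the selection.

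Chaperones of other routes were given the same tests. Of 16 further H3-H4 chaperones, from CAF-1, the MCM2-TONSL route, FACT and nuclear import, 0 were called in any comparison of lines, where 0.25% to 11.7% of all genes were. Between the line families 3 of the 16 passed by adjusted p alone in H3.3 KO against Daxx-/- and 4 in the WT lines, against 23.7% and 17.7% of all genes. The smallest p was that of Rbbp7, a subunit shared by CAF-1 and several deacetylase complexes, with a log2 fold change of -0.77 ± 0.14 (SE) for H3.3 KO against Daxx-/- (adjusted p = 0.0060). The median log2 fold change of these 16 genes was -0.03 after the DAXX transgene, -0.05 after WT H3.3 and 0.22 after the mutant H3.3, and that of all genes -0.02, 0.02 and 0.03.

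Of 11 other histone chaperones 1 was called, in H3.3 KO against Daxx-/-, where 11.7% of all genes were. Hjurp, the chaperone of the centromeric H3 variant CENP-A, was at 369 and 402 CPM in Daxx-/-, 241 and 242 in Daxx-/- + WT, 128 and 137 in H3.3 KO, 110 and 142 in H3.3 KO + WT, and 133 and 162 in H3.3 KO + L126A-I130A. Both Daxx-/- libraries were above all others, and H3.3 KO was lower by 1.54 ± 0.16 (SE) on the log2 scale (adjusted p = 9.6e-04). With the DAXX transgene Hjurp differed by -0.67 ± 0.16 (adjusted p = 0.0695).

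Of 10 DAXX partners, co-repressors and PML body proteins among them, 2 were called, 1 in each comparison of the line families, where 11.7% and 8.45% of all genes were called. Rassf1, a scaffold that binds DAXX, was at 12.2 and 36.2 CPM in Daxx-/- and at 8.66 and 4.90 CPM in H3.3 KO (log2 fold change -1.83, adjusted p = 0.0254). Sp100, a PML body protein, was at 0.25 and 0.39 CPM in Daxx-/- + WT and at 3.24 and 2.61 CPM in H3.3 KO + WT (3.17, adjusted p = 0.0193). Setdb1 and Trim28, which encode the silencing partners SETDB1 and KAP1, were called in 0 of the 6 comparisons. Of the 15 S-phase genes 0 were called, where up to 11.7% of all genes were. By adjusted p alone 2 passed in H3.3 KO against Daxx-/- and 3 in the WT lines, against 23.7% and 17.7% of all genes. Mcm3 had the smallest p, with -0.89 ± 0.15 for H3.3 KO against Daxx-/- (adjusted p = 0.0045).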

How the data were processed

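RNA-Seq libraries of 5 mESC lines, 2 each, were made by the authors with a kit that does not mark strand. Per the submitters' processing notes, reads were handled with Bowtie and RSEM and the mm9 build, with versions not given in the sources used here. The deposited table is named for TPM, but its values are RSEM expected counts per gene: they sum to 15463625 to 21396585 per library. Expected counts were rounded. A gene entered the test when 2 or more libraries reached 1 CPM (13201 genes), and the test was that of edgeR 4.0.16 (quasi-likelihood, 1 fit over 10 libraries, no batch term), with median-of-ratios size factors (0.936 to 1.04) in R 4.3.3. Replicates of 1 line may share a culture history, so p-values measure the spread between these libraries. The test was checked on simulated counts with the same dispersion for every gene and with changes larger than most of those reported here. That check thus does not cover smaller changes or unequal spread between replicates. DESeq2 1.42.0, limma 3.58.1 (pseudocounts 1 and 0.1), TMM, other filters, a replicate block and leaving out each library were alternatives.

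Named are the 10 members, H3f3a and H3f3b, the 3 genes most like Daxx, Atrx and Hira by Pearson r of log2(CPM + 1), from each list of chaperones, partners or S-phase genes the called genes, or that with the smallest p, and the called marker genes. Setdb1, Trim28 and the marker genes were picked with their values already known. The members and lists were chosen with earlier results of these data known. Positions are from GENCODE vM21 (GRCm38) by symbol and not from the build of the files. Motifs and promoters are from RefSeq windows. Shared sequence was searched with blastn 2.17.0 (at least 300 bases and 90% identity).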

Additional observations from a re-analysis of the deposited data

How the results depend on the processing

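With each comparison fitted alone, 0 of the 10 genes were called with the DAXX transgene (main count 1). The difference of the DAXX and WT H3.3 effects called 1 gene, Daxx, with DESeq2 and 1 with the replicate block (main count 0). Without a fold threshold, H3.3 KO against Daxx-/- called 2 genes (main count 0).

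With 1 library left out, the DAXX transgene called 0 to 2 genes (2, Daxx and Hira, without Daxx-/- replicate 1, and 0 without the libraries named with Daxx). The difference of the DAXX and WT H3.3 effects called 0 to 2 (2 without Daxx-/- replicate 1) and H3.3 KO against Daxx-/- 0 to 1 (Ubn2, without Daxx-/- replicate 2). Of the log2 fold changes printed in the report, those that turned sign ranged, with the DAXX transgene, from -0.57 to 0.082 for Atrx, -0.025 to 1.08 for Hira, -0.22 to 0.00046 for Ubn2, -0.077 to 0.11 for Cabin1, -0.16 to 0.46 for Dek and -0.26 to 0.53 for Nasp. With WT H3.3 they ranged from -0.057 to 0.015 for Daxx and -0.012 to 0.091 for Asf1b, and with L126A-I130A H3.3 from -0.14 to 0.090 for Atrx, -0.16 to 0.081 for Hira and -0.0068 to 0.47 for Nasp. Cabin1 with the DAXX transgene was -0.022 with genes of at least 5 CPM. Of all 80 values, 31 changed sign in some alternative, none above 0.43 in size, and 5 passed or lost the threshold.

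The number of all genes called went from 143 to between 1 (fitted alone) and 621 (replicate block) for the DAXX transgene, from 33 to between 24 and 330 for WT H3.3, from 104 to between 29 and 461 for L126A-I130A H3.3, and from 68 to between 18 and 323 for the H3.3 transgenes against each other. H3.3 KO against Daxx-/- went from 1543 to between 859 and 1895, and H3.3 KO + WT against Daxx-/- + WT from 1116 to between 831 and 1630. With 1 library left out these counts ran, in the same order, from 1 to 1074, 2 to 61, 2 to 231, 0 to 102, 706 to 2097 and 364 to 1396. The cause was not tested.

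Replicate numbers were shared between lines, but same-numbered libraries deviated together by more than 0.1 in 7 of 10 pairs of lines (correlation -0.04 to 0.57), and above 0 in 8. The rule used asked for more than 0.1 in every pair and the labels do not say what a number marks, so the block was kept as an alternative. The data thus hint at a shared component without showing a pairing. With the block, the adjusted p of Nasp passed between the line families (0.0163 and 0.0154), at under 2-fold. The number of libraries, 2 a line, limits the precision, since every member was read with at least 457 counts in each library.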
